A study of Mus musculus with 24 samples.

Results

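The 10 genes described here are acute-phase genes and the receptor genes that lie upstream of them: the orosomucoids Orm1, Orm2 and Orm3, the lipocalin Lcn2, the ceruloplasmin gene Cp, Saa3 and Hp, and, for signalling, the interleukin 6 receptor chains Il6ra and Il6st and the transcription factor Stat3. They were found by symbol in all 6 deposited tables, of which 5 held 25124 genes and 1 held 26188. The members were selected on measured values of these data, namely those of Cort against vehicle in both lines, of the difference between those 2 responses and of TCA against vehicle in wt. Values from these contrasts are given as description, with no p-value, and the counts of calls in them support nothing. The other 7 comparisons were tested.

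The study used C127 cells (C127l in the labels), derived from a mammary adenocarcinoma of a mouse, from which the glucocorticoid receptor was removed (GRKO) and to which a GFP-tagged mouse receptor was added. The tetra groups carried GFP-mGRtetra, a form that the labels do not describe, and the wt groups carried GFP-mGRwt. Each line was given TCA plus Cort, Cort alone, TCA alone or vehicle, with 100 nM corticosterone (Cort, the principal mouse glucocorticoid), 100 µM TCA and 2 h of treatment in 3 libraries per group. The abbreviation TCA is used without a definition, and usually stands for taurocholic acid, a conjugated bile acid. All 8 groups share the receptor removal and the charcoal-stripped serum, no group lacks a receptor form, and receptor form and cell line cannot be told apart. The labels do not say that the libraries of a group came from separate cultures, so p-values measure only the spread between these libraries.

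Acute-phase proteins are plasma proteins whose synthesis changes during inflammation, mainly in the liver and to a lesser extent in other tissues, the mammary gland included. Interleukin 6 binds the receptor chain encoded by Il6ra, the pair engages gp130, encoded by Il6st, and JAK kinases then phosphorylate STAT3. Glucocorticoids act together with this pathway on many of these genes. In the rat, the orosomucoid promoter is a classic glucocorticoid response unit in which sites for the receptor and for C/EBP proteins lie side by side.

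The 3 orosomucoid genes lie in a row on the plus strand of chromosome 4 in mm10, Orm1 at chr4:63344556-63348163, Orm3 at chr4:63356162-63359511 and Orm2 at chr4:63362449-63365877, with 7999 bases between Orm1 and Orm3 and 2938 between Orm3 and Orm2. The 250 bases before the RefSeq start (build GRCm38.p6) are shown for Orm3 and Orm2, whose levels moved together and which are 89% identical in these windows over 245 aligned bases, and for Lcn2 (chr2:32384637-32387739, minus strand), the other secreted member with large changes. In the 3 windows, capitals mark matches to TTGCNNAA, a C/EBP-type motif, to AGAACA, a half-site of the glucocorticoid receptor, and to ACANNNTGT, the spaced palindrome core of a receptor site. The windows are chr4:63355908-63356157 (plus strand) for Orm3, chr4:63362199-63362448 (plus strand) for Orm2 and chr2:32387740-32387989 (minus strand) for Lcn2.
Orm3: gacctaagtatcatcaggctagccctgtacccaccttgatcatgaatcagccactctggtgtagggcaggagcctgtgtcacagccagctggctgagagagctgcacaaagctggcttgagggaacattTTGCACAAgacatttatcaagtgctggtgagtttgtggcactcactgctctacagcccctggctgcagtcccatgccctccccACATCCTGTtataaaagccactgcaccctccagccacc
Orm2: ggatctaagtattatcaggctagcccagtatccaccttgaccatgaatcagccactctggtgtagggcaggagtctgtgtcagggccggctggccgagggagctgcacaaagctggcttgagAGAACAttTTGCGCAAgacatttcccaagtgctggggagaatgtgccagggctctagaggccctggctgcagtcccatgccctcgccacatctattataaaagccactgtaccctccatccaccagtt
Lcn2: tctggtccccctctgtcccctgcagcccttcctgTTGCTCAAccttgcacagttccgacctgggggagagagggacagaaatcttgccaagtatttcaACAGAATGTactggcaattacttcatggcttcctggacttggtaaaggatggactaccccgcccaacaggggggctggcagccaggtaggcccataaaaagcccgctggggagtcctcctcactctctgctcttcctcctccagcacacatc
The C/EBP-type motif began 121 bases before the start in Orm3, as TTGCACAA, and 120 bases before it in Orm2, as TTGCGCAA. In Orm2 the half-site AGAACA spanned bases 128 to 123 before the start, next to that motif, and the Orm3 window held no match to it.

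A match is a description and not a binding site. Of the 10 members, 8 had a promoter in the RefSeq table. With both strands searched, TTGCNNAA was in 9.56% of all 32851 promoter windows of that length, AGAACA in 16.1%, ACANNNTGT in 5.84% and the STAT-type motif TTCNNNGAA in 7.02%. TTGCNNAA matched in Orm3, Orm2, Lcn2, Cp and Saa3, AGAACA in Orm2, Cp and Stat3, ACANNNTGT in Orm3 and Lcn2, and TTCNNNGAA in no member's window. The matches of Cp lie in different windows, AGAACA in chr3:19956804-19957053 and TTGCNNAA in chr3:19956999-19957248. The matches in the 3 windows shown do not overlap, apart from TTGCGCAA in Orm2, which matches on both strands.

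Each library held 22.02 to 30.6 M exon reads, and 3 reads, the floor used here, equal 2.55 to 3.58 normalised counts. Normalised counts are recovered reads divided by a size factor. Levels by group are scaled over all 24 libraries, and values set against each other in a test are scaled within the table or the libraries tested. Of 4 known receptor targets, Per1, Tsc22d3, Sgk1 and Fkbp5, 4 rose in tetra and 3 in wt when Cort was added to TCA. Per1, a clock gene, rose 4.76-fold in tetra and 5.68-fold in wt (limma adjusted p = 4.87e-11 and 9.89e-11, n = 3 libraries per group), and Fkbp5 was at 1.06-fold in wt without a call (limma adjusted p = 0.421). Against the mammary epithelial label, Epcam had 0 reads in all libraries and 6 of 10 epithelial markers, Krt18, Cdh1 and Krt5 among them, averaged under 3 normalised counts. Krt14 averaged 604.5. Of 8 fibroblast markers 7 could be compared, and averaged 53190 for Col1a2, 4922 for Pdgfrb, 567 for Pdgfra, 179 for Col3a1, 155 for Col1a1, 3.41 for Thy1 and 0.069 for Lum. Of 8 hepatocyte markers 6 could be compared: Alb and Ttr were at 0 in every library, Apoa1 and Cyp2e1 averaged under 3, and Apoa2 averaged 84.25 and Apob 21.4.

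The order of the members was set by level per kilobase of transcript over all 24 libraries. Orm3 had 1065 normalised counts per kilobase and Il6st 1041, followed by Stat3 with 396, Il6ra with 109, Orm2 with 32.6, Orm1 with 27.2 and Lcn2 with 19.96 normalised counts per kilobase. The place of Orm3 rested on the 2 tetra groups given Cort, with means of 3741 and 3600 per kilobase. In every other group Orm3 had 34.3 to 669, below Il6st at 886 to 1184, and it was below Stat3 in all of these but wt Cort. Hp, the haemoglobin scavenger haptoglobin, and Saa3, an extrahepatic serum amyloid A, had 1.19 per kilobase each. These 2 acute-phase genes had at most 4 and at most 3 reads in any library and, since they lie at the floor, no order or change can be read from them. Cp was counted on a different transcript in different tables and is given by table further on.

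Orm3, which encodes an orosomucoid (alpha-1-acid glycoprotein), a secreted lipocalin that binds basic and neutral drugs and steroids, was the most abundant orosomucoid. In tetra it had 2534, 3232 and 2819 normalised counts with TCA plus Cort and 2746, 3127 and 2390 with Cort, against 80.8, 92.7 and 77.95 with TCA and 89.9, 88.1 and 81.9 with vehicle. In wt it had 71.2, 61.1 and 62.4 with TCA plus Cort and 505.7, 524.6 and 505.5 with Cort, against 29.8, 22.3 and 26.6 with TCA and 134, 110.5 and 147 with vehicle. Both Cort groups of tetra stood above all other groups and overlapped each other, and the tetra TCA and vehicle libraries overlapped too. In wt the 4 groups did not overlap, and TCA plus Cort lay under vehicle in every library.

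Orm1 and Orm2, the 2 paralogs of Orm3 in the cluster, were high in the same tetra groups at far lower levels. Orm1 had 64.9, 63.3 and 65.5 normalised counts with TCA plus Cort and 61.8, 73.3 and 50.7 with Cort in tetra, against 2.56 to 6.34 over the TCA and vehicle libraries. Orm2 had 76.4, 87.7 and 47.2 with TCA plus Cort and 66.8, 72.2 and 44.9 with Cort, against 3.20 to 7.69 over the TCA and vehicle libraries of tetra. With Cort in wt Orm2 had 32.6, 46.7 and 43.4, which overlapped its tetra Cort libraries. In wt the pair differed from Orm3 in depth: Orm2 had 2, 2 and 0 reads with TCA plus Cort, 30, 46 and 41 with Cort, 0, 0 and 1 with TCA and 11, 10 and 17 with vehicle. Orm1 in wt had 6, 1 and 4 reads with TCA plus Cort, 16, 27 and 22 with Cort, 2, 0 and 2 with TCA and 3, 8 and 6 with vehicle. Most orosomucoid reads were Orm3's: 94.7 to 96.2% per library with TCA plus Cort and 95.5 to 96.2% with Cort in tetra, against 87.6 to 91.3% with vehicle in tetra. In wt the share was 87.6 to 91.0% with Cort, against 84.5 to 89.1% with vehicle. It was also high with TCA plus Cort in wt, at 91.1 to 94.5%. With TCA the share was 88.4 to 93.5% in tetra and 90 to 100% in wt, where the group held 84 orosomucoid reads in all.

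The paralogs are alike, and their counts are uncertain to the extent that reads could be placed on more than 1 of them. Over aligned transcripts (GENCODE vM21) Orm1 and Orm2 were 91% identical, Orm2 and Orm3 88.5% and Orm1 and Orm3 86.5%. Of all 50-base stretches of Orm3, 3.59% occur in Orm2 and 2.21% in Orm1, while Orm1 and Orm2 share 20.4%. At 100 bases the pair Orm1 and Orm2 shares 6.95% and Orm3 shares 0% with either. The read length and the treatment of multiply placed reads are not given in the sources used here.

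Lcn2 encodes lipocalin 2, which binds bacterial siderophores and so withholds iron. In tetra it had 69.9, 80.9 and 55.9 normalised counts with TCA plus Cort and 61.8, 64.0 and 40.7 with Cort, against 2.88, 1.07 and 1.15 with TCA and 1.06, 0.94 and 0.85 with vehicle. In wt its reads were 3, 1 and 6 with TCA plus Cort, 4, 3 and 3 with Cort, 0, 1 and 3 with TCA and 0, 0 and 0 with vehicle. The tetra Cort groups stood apart from all others, and every wt group was at or near the floor of 3 reads per library, so no fold is given for wt.

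**Figure D1:**
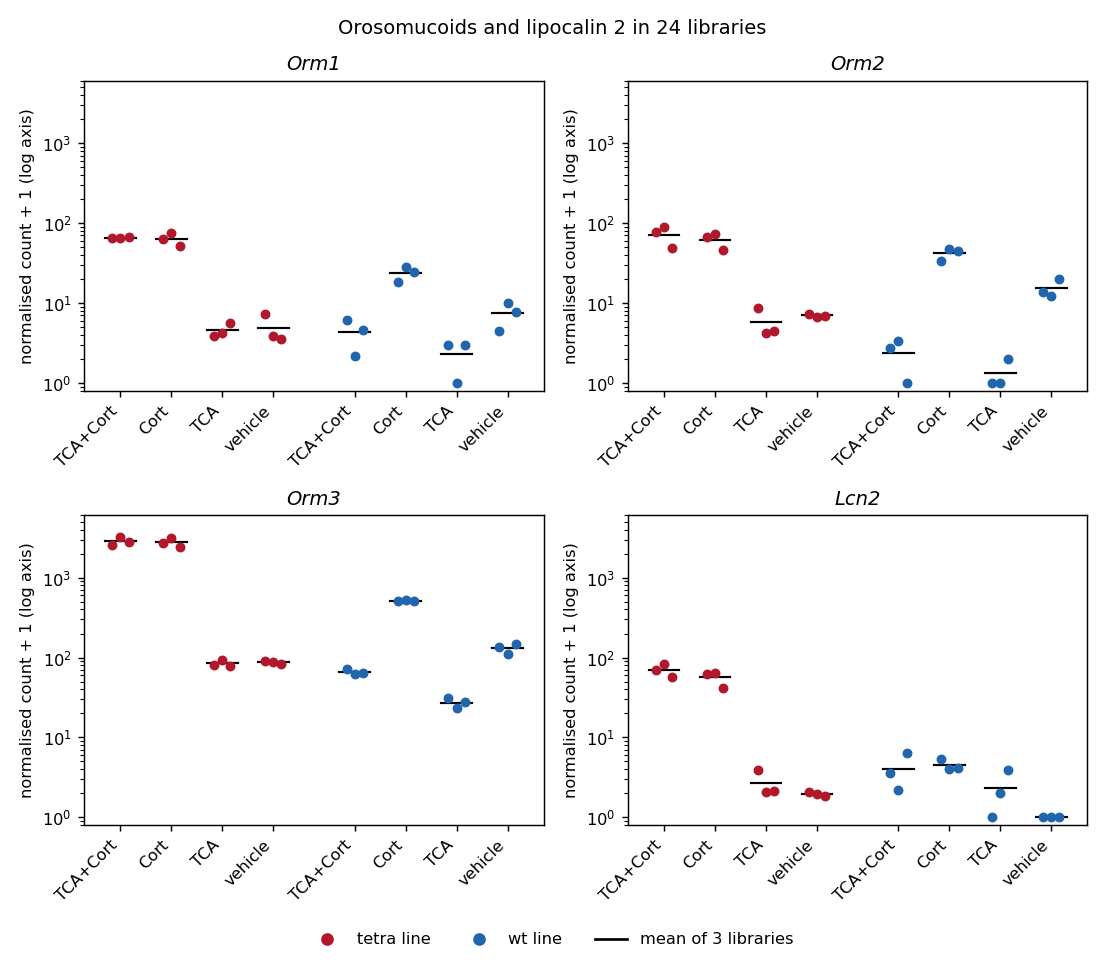
Normalised count plus 1 (log axis, scaled over all 24 libraries) of Orm1, Orm2, Orm3 and Lcn2 in each library of the 8 groups, tetra in red and wt in blue, with a line at each group's mean of 3 libraries. By group mean all 4 genes were highest in the 2 tetra groups given Cort, but for Orm2 the tetra Cort libraries overlapped those of wt Cort. Lcn2 stayed at 6 reads or fewer in every wt library. The 3 orosomucoids were lower in the wt groups given TCA than in the wt groups not given it when the same Cort treatment is compared.

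In the contrasts that chose the members, the pooled reads of Cort alone against vehicle in wt gave a ratio of 3.56 for Orm1 (counting interval 2.06 to 6.49) and 2.87 for Orm2 (1.98 to 4.26). In tetra the same ratios were 16.2 for Orm1 (9.07 to 31.9) and 10.1 for Orm2 (6.28 to 17.1). Lcn2 had 61, 62 and 49 reads with Cort against 1, 1 and 1 with vehicle in tetra, a ratio of 57.8 with a counting interval of 19.4 to 283 (all intervals 95%, exact, counting error only). Cort alone called 2.38% of genes in wt, 0.918% as higher and 1.47% as lower, and 3.34% in tetra, 2.47% as higher and 0.871% as lower. TCA alone called 57.4% in wt, 28.8% as higher and 28.6% as lower. Among the members, 3 of 7 tested were called in wt and 7 of 8 in tetra with Cort, and 5 of 5 with TCA in wt, which only repeats how they were chosen.

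Whether Cort acts on these genes when TCA is present was asked with TCA plus Cort against TCA. In tetra the choice of members used neither group, and in wt it used the TCA libraries, through TCA against vehicle. In tetra 5 members rose: Orm3 34.2-fold, Lcn2 40.65-fold, Orm1 18.2-fold, Orm2 14.8-fold and Il6ra 3.37-fold, with no overlap between groups. Of all genes tested 1.71% were called, 1.42% as higher. Of the 10 members 8 passed the filter on low counts, a mean of 10, and Orm1, Orm2 and Lcn2 passed it only through their high TCA plus Cort group. These 3 had to differ to be tested, so their calls and the count of 5 are descriptions and no support for a rise among the members. Changes of log2(normalised count + 1) were 5.08 ± 0.11 (SE) for Orm3 (adjusted p = 4.07e-14, limma with Benjamini-Hochberg adjustment over 12830 genes, n = 3 libraries per group), 1.74 ± 0.12 for Il6ra (limma adjusted p = 1.17e-07), and, as descriptions, 4.76 ± 0.39 for Lcn2, 3.88 ± 0.32 for Orm1 and 3.68 ± 0.36 for Orm2. By reads alone the ratio of Lcn2 was 39.1, with a counting interval of 16.5 to 122, since the TCA group held 5 reads. The macrophage and neutrophil marker sum was 123 to 162 normalised counts with TCA plus Cort against 126 to 139 with TCA, and the epithelial sum 508 to 743 against 595 to 602, and their part in the result was not tested. In bulk RNA, fewer expressing cells and less RNA per cell cannot be told apart.

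In wt Orm3 alone was called, at 65.8 ± 5.49 normalised counts with TCA plus Cort against 26.6 ± 3.87 with TCA by that table's scaling (SD, n = 3), which is 2.48-fold. Its log2 change was 1.28 ± 0.19 (SE, limma adjusted p = 0.0121 over 12774 genes), where 0.415% of all genes were called, 0.274% as higher. The call was lost without wt TCA library 2 or without wt TCA plus Cort library 1, 2 or 3, with limma adjusted p between 0.0587 and 0.0934. Without wt TCA library 3, which stands apart, the adjusted p was 0.000141 and the number of genes called 2570 in place of 53, and without any other single library it was 6 to 13. Only 5 members passed the filter in wt, and Lcn2, Orm1 and Orm2 were not among them.

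The response to Cort in the presence of TCA was called as different between the lines for Orm3, Lcn2 and Il6ra. The wt TCA libraries in this test are also in a contrast that chose the members. Lcn2, Orm1 and Orm2 passed the filter only through tetra TCA plus Cort. These 3 had to differ to be tested, so their values and calls, in any setting, are descriptions and no independent support. The difference in log2 change, tetra minus wt, was 3.80 ± 0.19 for Orm3 (SE, limma interaction adjusted p = 6.15e-10 over 12451 genes, n = 3 libraries in each of 4 groups), 3.86 ± 0.81 for Lcn2 (limma adjusted p = 0.0291) and 1.66 ± 0.19 for Il6ra (limma adjusted p = 4.24e-05). Of all genes tested 0.643% were called, 0.530% as higher in tetra, and the number of genes called was 52 in place of 80 without wt TCA plus Cort library 2 or 3. The call of Lcn2 was lost without tetra TCA library 2 or 3, any tetra TCA plus Cort library, wt TCA library 2 or 3, or wt TCA plus Cort library 1 or 2, with limma adjusted p between 0.0588 and 0.119. Orm1 and Orm2 differed by 2.93 ± 0.73 and 2.93 ± 0.81 and were not called (limma adjusted p = 0.100 and 0.173). With 5 in place of 1 added before the logarithm they were called (limma adjusted p = 0.00104 and 0.00233), and Orm1 was also called without wt TCA library 2 (limma adjusted p = 0.0168).

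**Figure D2:**
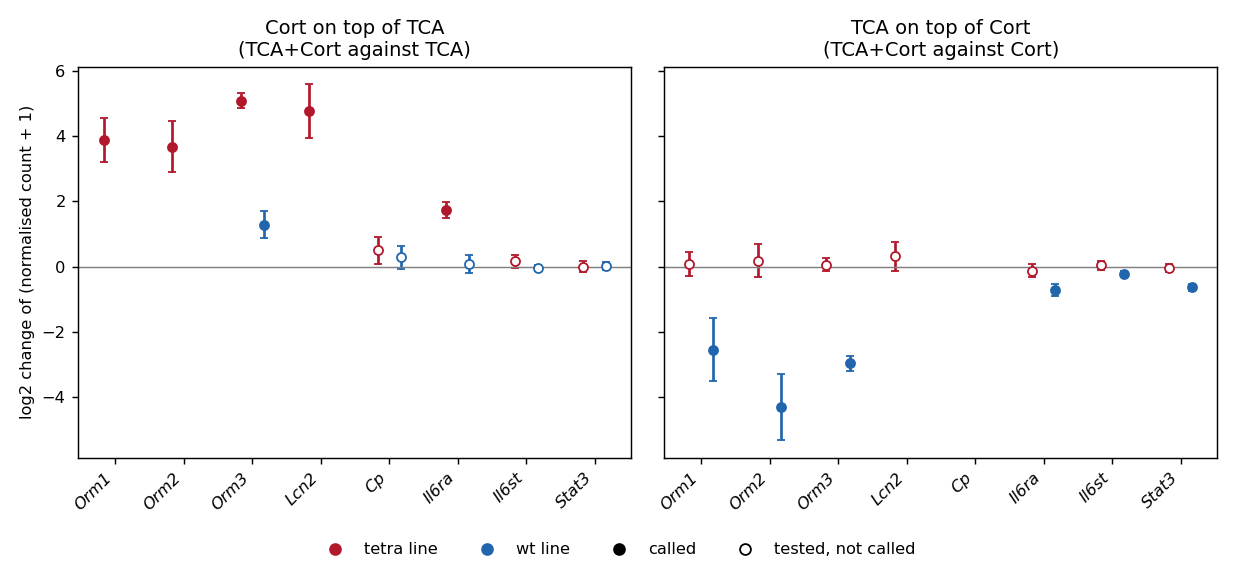
Change of log2(normalised count + 1) with its 95% interval from limma for the members tested, tetra in red and wt in blue, for Cort added to TCA (left) and TCA added to Cort (right), where filled points are called and open points are tested without a call. On the left the tetra points of Orm1, Orm2, Orm3, Lcn2 and Il6ra and the wt point of Orm3 are called and lie above 0. The interval of Cp in tetra, 0.08 to 0.92, also lies above 0, without a call. On the right the wt points of Orm1, Orm2, Orm3, Il6ra, Il6st and Stat3 lie below 0, and the tetra intervals include 0. Orm1, Orm2 and Lcn2 in tetra on the left, and Orm1 and Orm2 in wt on the right, passed the filter only through their high group. Their points are descriptions.

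The converse question is what TCA does on top of Cort. In wt all 6 members tested were lower with TCA plus Cort than with Cort: Orm3 7.89-fold, Orm1 6.81-fold, Il6ra 1.64-fold, Stat3 1.56-fold and Il6st 1.18-fold lower, and Orm2 with 4 reads in all against 117. The log2 changes were -2.96 ± 0.11 for Orm3 (SE, limma adjusted p = 9.16e-15 over 12457 genes, n = 3 libraries per group), -0.70 ± 0.09 for Il6ra (limma adjusted p = 1.08e-06), -0.63 ± 0.05 for Stat3 (limma adjusted p = 8.05e-10) and -0.23 ± 0.04 for Il6st (limma adjusted p = 0.00013). Orm1 and Orm2, at -2.55 ± 0.46 and -4.29 ± 0.48, passed the filter only through the high Cort group and had to differ to be tested, so these values are descriptions. With so few reads the value for Orm2 depends on the 1 added before the logarithm, and was -2.84 with 5 added. This comparison called 59.0% of all genes, 29.2% as lower, and the Cort libraries are among those that chose the members.

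In tetra none of the 7 members tested was called for TCA on top of Cort, where 0.0639% of all genes were called. None had an unadjusted p under 0.05, and limma voom called none either. The 95% interval of the log2 change ran from -0.15 to 0.26 for Orm3, from -0.30 to 0.45 for Orm1, from -0.33 to 0.68 for Orm2, from -0.12 to 0.76 for Lcn2 and from -0.32 to 0.08 for Il6ra. Without tetra TCA plus Cort library 3 the number of genes called was 259 in place of 8, and 1 to 3 without any other single library, with no member among them. TCA alone against vehicle in tetra likewise called none of 5 members, with 0.0153% of genes called, no member at an unadjusted p under 0.05 and none called by limma voom, and leaving out single libraries gave 1 to 6 genes in place of 2. For Orm3 the interval of that log2 change was -0.37 to 0.25. The tetra Cort and tetra vehicle libraries in these comparisons are also in a contrast that chose the members. Neither result is independent of that choice. Whether the effect of TCA differs between the lines was not tested here.

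Other markers moved with TCA in wt. The sum of 10 epithelial markers, nearly all Krt14, was 144 to 189 normalised counts with TCA plus Cort against 917 to 1232 with Cort in wt, and 508 to 743 against 512 to 588 in tetra. Of 10 macrophage and neutrophil markers 6 could be compared, and their sum, mostly Cd68, was 119 to 148 against 256 to 297 in wt and 123 to 162 against 129 to 158 in tetra, with Tyrobp, S100a8 and Mpo near 0. The ribosomal precursor Rn45s took 26.1 to 29.1% of exon reads with TCA plus Cort against 18.6 to 22.0% with Cort in wt. The part of these in the members' values was not tested.

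Il6ra, the ligand-binding chain of the interleukin 6 receptor, was the signalling member that changed most. In tetra it had 569, 677 and 767 normalised counts with TCA plus Cort and 702, 718 and 752 with Cort, against 198, 181 and 220.1 with TCA and 237, 271 and 196 with vehicle. In wt it had 211, 221 and 214 with TCA plus Cort and 369.8, 333 and 357.5 with Cort, against 179, 182 and 260.4 with TCA and 339, 324 and 298 with vehicle. The tetra Cort groups overlapped each other and no other group, and in wt the Cort and vehicle libraries overlapped, as did those of TCA plus Cort and TCA. Adding Cort to TCA in wt changed Il6ra by 0.08 ± 0.13 on the log2 scale (SE, limma adjusted p = 0.822).

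Il6st, the shared signal-transducing chain gp130, was high in all groups and moved little. It ranged from 5607 to 5899 normalised counts with TCA plus Cort, 5365 to 5949 with Cort, 4740 to 6040 with TCA and 4600 to 5099 with vehicle in tetra. In wt the ranges were 5374 to 5521 with TCA plus Cort, 6114 to 6638 with Cort, 5439 to 5811 with TCA and 6007 to 6626 with vehicle. Adding Cort to TCA changed it by 0.16 ± 0.09 in tetra (SE, limma adjusted p = 0.790) and by -0.03 ± 0.04 in wt (limma adjusted p = 0.701). The 6 wt libraries given TCA lay below the 6 not given it.

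Stat3, the transcription factor that carries the signal to the nucleus, lay between 1509 and 1824 normalised counts in all 12 tetra libraries. In wt it had 1493, 1430 and 1443 with TCA plus Cort and 2281, 2308 and 2216 with Cort, against 1399, 1384 and 1542 with TCA and 2331, 2277 and 2237 with vehicle. The wt libraries thus fell into those with and those without TCA, with no overlap. Adding Cort to TCA changed Stat3 by 0.0041 ± 0.08 in tetra (SE, limma adjusted p = 0.997) and by 0.02 ± 0.05 in wt (limma adjusted p = 0.907).

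**Figure D3:**
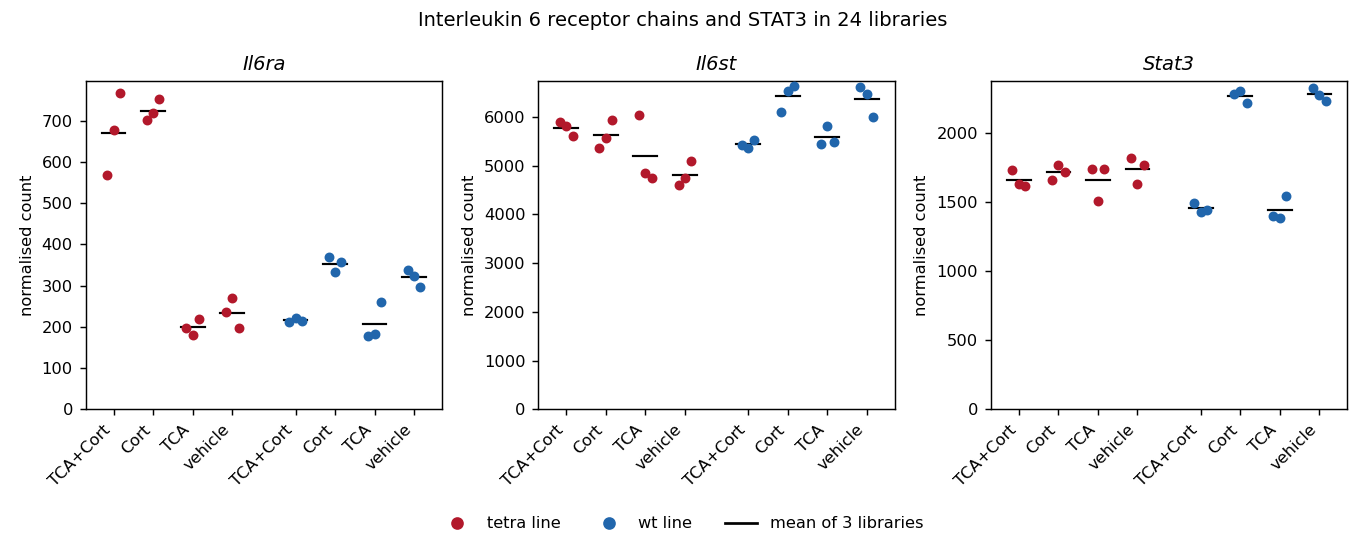
Normalised counts (linear axis from 0, scaled over all 24 libraries) of Il6ra, Il6st and Stat3 in each library of the 8 groups, tetra in red and wt in blue, with a line at each group's mean of 3 libraries. Il6ra was highest in the 2 tetra groups given Cort, and Stat3 was lower in the 6 wt libraries given TCA than in the 6 wt libraries not given it.

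Cp encodes ceruloplasmin, the copper-carrying ferroxidase of plasma, and departed from the other acute-phase members. It was counted on a 3868-base transcript in 3 tables and on a 4690-base one in the others, so the same wt vehicle libraries held 80, 81 and 75 reads in 1 table and 100, 101 and 92 in another. Values are therefore compared within a table only, or between tables that share the transcript. In wt it had 564, 566 and 823 normalised counts with TCA plus Cort against 563, 647 and 396 with TCA, and in tetra 261, 369 and 207 against 260, 157 and 172. Groups overlapped in both lines, and Cort added to TCA gave no call, with log2 changes of 0.50 ± 0.20 in tetra (SE, limma adjusted p = 0.453) and 0.29 ± 0.16 in wt (limma adjusted p = 0.391). Their difference was 0.21 ± 0.30 (limma adjusted p = 0.921).

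TCA alone in tetra left Cp at 240, 153 and 177 against 156, 132 and 174 with vehicle, with overlapping groups and no call (log2 change 0.29 ± 0.16, SE, limma adjusted p = 0.941). In the contrast that chose it, TCA in wt, the table gave 520, 599 and 370 against 87.1, 85.2 and 78.2 with vehicle. With Cort alone Cp had 229, 237 and 254 against 164, 138 and 183 in tetra and 128, 151 and 144 against 106, 104 and 93.3 in wt, without overlap, as a description. It was thus the one member measured above the floor that was higher with TCA in wt, where Orm3, Il6ra, Il6st and Stat3 were lower.

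**Figure D4:**
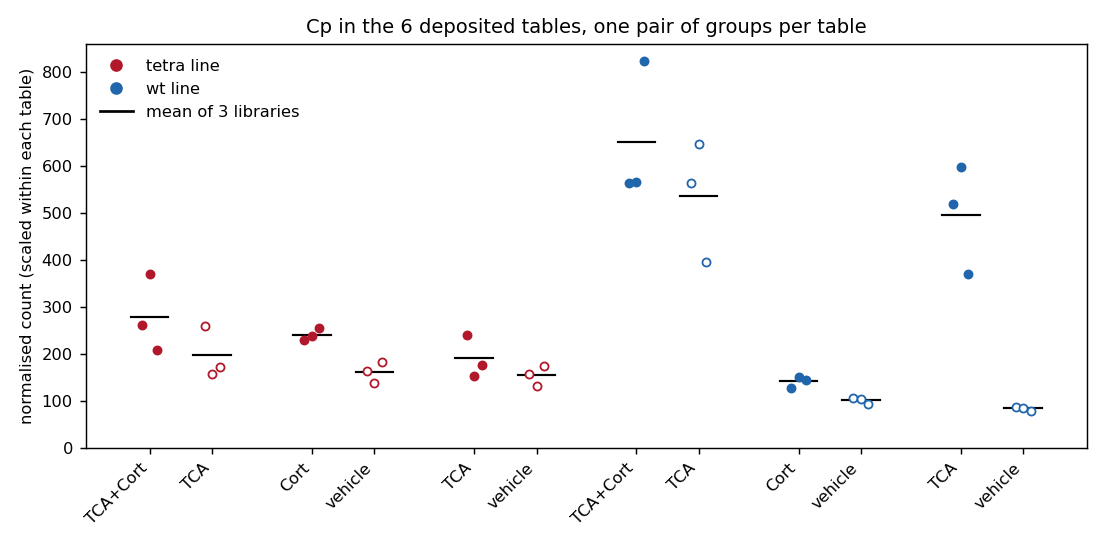
Normalised counts of Cp in each library (linear axis from 0), scaled within each of the 6 deposited tables, with filled points for the group named first in each pair and open points for the group it is set against, tetra in red and wt in blue, and a line at each mean of 3 libraries. In the pair of TCA against vehicle in wt, a contrast that chose the members, the TCA libraries had 520, 599 and 370 and the vehicle libraries 87.1, 85.2 and 78.2. Scaling and, in part, the transcript differ between the tables, so heights are to be compared within a pair.

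In untreated cells the lines differed in all 5 members tested, where 44.4% of all genes were called, 23.0% as lower and 21.4% as higher in tetra. Orm3 had 86.6 ± 4.19 normalised counts in tetra against 131 ± 18.6 in wt (SD, n = 3, scaled over 24 libraries), a log2 change of -0.58 ± 0.15 (SE, limma adjusted p = 0.00197). Il6ra was 1.36-fold lower in tetra (limma adjusted p = 0.000921), Il6st 1.32-fold lower (limma adjusted p = 3.32e-08) and Stat3 1.31-fold lower (limma adjusted p = 1.59e-07). Cp was higher, with 150, 127 and 167 in tetra against 112, 110 and 98.7 in wt with these 6 libraries scaled together (log2 change 0.46 ± 0.14, SE, limma adjusted p = 0.00712), but without tetra vehicle library 3 its adjusted p was 0.0683. The vehicle libraries also enter the contrasts that chose the members. The epithelial marker sum was 533 to 662.5 in tetra against 1082 to 1228 in wt, and the macrophage and neutrophil sum 129 to 150 against 211 to 259, and their part in these values was not tested.

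Other genes of the pathway were counted from lists chosen with earlier results known. Cort on top of TCA in tetra called 1.71% of all genes, 1.42% as higher. There 2 of 12 tested other acute-phase genes rose and none fell. Among them Mt1, a metallothionein, had 734 ± 10.8 normalised counts with TCA plus Cort against 449 ± 62.4 with TCA (SD, n = 3, 1.64-fold, limma adjusted p = 0.000294). The list's median log2 ratio was -0.06, beside -0.0014 over all genes tested. Of 12 tested acute-phase transcription factors and regulators 3 rose and 1 fell: Cebpb 1.63-fold (limma adjusted p = 0.00157) and Cebpd 1.42-fold (limma adjusted p = 0.016) rose, both encoding C/EBP proteins, as did Nfkbia, the NF-kappaB inhibitor, 1.53-fold (limma adjusted p = 0.000901), and Irf1, an interferon-regulated factor, was 1.37-fold lower (limma adjusted p = 0.00627). The list's median was -0.02.

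Among 18 STAT3 target genes 3 rose and 1 fell in that comparison, with a median log2 ratio of 0.13. Of all genes 1.42% were called higher and 0.288% lower there. Bcl2l1, which encodes the survival protein Bcl-xL, rose 2.35-fold, with 4604 ± 290 normalised counts against 1964 ± 196 (SD, n = 3, limma adjusted p = 1.16e-07), and Ier3, an immediate early gene, was 1.58-fold lower (limma adjusted p = 0.00147). The other 2 were Cebpb and Cebpd, which are on both lists. Of 17 tested genes of iron and copper handling Slc39a14, which encodes the zinc and iron importer ZIP14, rose 1.89-fold (limma adjusted p = 6.69e-07). None of 6 gp130 ligands, 11 receptors and kinases and 7 inhibitors was called, with medians of -0.20, 0.03 and 0.15, and none of the 8 negative acute-phase genes passed the filter.

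In wt the same comparison called 0.415% of all genes. It called 1 of 8 other acute-phase genes, as higher, and Cebpb, 1.28-fold higher (limma adjusted p = 0.0336), of 12 factors and of 18 STAT3 targets. None of the gp130 ligands, receptors, inhibitors or iron and copper genes tested was called. For TCA on top of Cort in wt, where 59.0% of genes were called, 1 of 10 other acute-phase genes was higher and 5 were lower, with a median log2 ratio of -0.30 beside -0.00077 over all genes. Ptx3, a pentraxin, was 2.43-fold higher and the complement proteases C1s1 and C1ra 3.83-fold and 1.55-fold lower (limma adjusted p = 4.06e-06, 2.58e-10 and 3.90e-06). Of 7 gp130 inhibitors 4 were higher and 2 lower, Socs3 among them, the feedback inhibitor of gp130, with 467 ± 19.5 against 262 ± 12.5 (SD, n = 3, 1.78-fold, limma adjusted p = 3.35e-08). Of 9 receptors and kinases 6 were lower and none higher, among them Adam10, the protease that sheds the interleukin 6 receptor, 1.70-fold (limma adjusted p = 4.63e-11), Stat5a 1.73-fold (limma adjusted p = 2.20e-09) and the JAK family kinase Tyk2 1.53-fold (limma adjusted p = 1.62e-06). Of 17 tested STAT3 targets 10 were higher and 5 lower, with a median log2 ratio of 0.26. Of 12 acute-phase factors 4 were higher and 3 lower. These counts stand beside 29.8% of all genes called higher and 29.2% called lower.

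For iron, of 17 tested genes 3 were higher and 10 lower with TCA on top of Cort in wt. Of all genes 29.8% were called higher and 29.2% lower there. Tfrc, the transferrin receptor, was 1.45-fold higher (limma adjusted p = 2.71e-08) and Fth1, the ferritin heavy chain, 1.69-fold lower (limma adjusted p = 3.47e-10). In tetra that comparison called 0.0639% of all genes. It called 1 of 10 other acute-phase genes, as higher, and no gene of the other pathway lists. Between untreated lines, 5 of 8 gp130 inhibitors were higher and none lower in tetra, where 21.4% of all genes were called higher and 23.0% lower. Socs3 was 1.45-fold higher (limma adjusted p = 5.61e-05). C3, the central complement component, had 3.93 ± 0.27 in tetra, near the floor, against 31.8 ± 4.89 in wt (SD, n = 3). C3 passed the filter only through wt and had to differ to be tested, so its values are a description.

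Of the 8 genes next to the orosomucoid cluster and Lcn2, 1 was called with Cort on top of TCA in tetra. That comparison called 1.71% of all genes, 1.42% as higher. There Col27a1, which ends 9566 bases before Orm1, had 17.8 ± 8.24 normalised counts against 4.93 ± 3.37 (SD, n = 3, 3.60-fold, limma adjusted p = 0.132). Akna, which lies 1246 bases after Orm2, had 85.4 ± 4.11 against 57.7 ± 6.21 (1.48-fold, limma adjusted p = 0.180). Both had no overlap between groups and no call, and Col27a1 passed the filter only through its high TCA plus Cort group. With Cort alone in tetra Col27a1 had 25.1 ± 6.10 against 5.64 ± 3.19 with vehicle, a log2 change of 2.10 ± 0.42 (SE), again with no overlap. With Cort on top of TCA in tetra, Mir455 had 0 in all libraries and Whrn lay under the floor, so neither was tested. Around Lcn2, Slc25a25, which lies 26748 bases further along the chromosome, rose 1.33-fold (limma adjusted p = 0.0242), and Ciz1, 1110008P14Rik and Ptges2 were not called (limma adjusted p = 0.984, 0.750 and 0.893).

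The genes whose pattern was most like that of a member were found by Pearson's r of mean log2(normalised count + 1) over the 8 group means, among genes with a mean of at least 50. For Orm3 they were Ralb (r = 0.994), Hip1r (0.992), Ell2 (0.99) and Sorbs3 (0.983), for Lcn2 B3galnt2 (0.995), Fkbp5 (0.988), Spsb1 (0.986) and Zfp52 (0.983), and for Il6ra Adm (0.981), Ralb (0.979), Hip1r (0.979) and Irak3 (0.978). These r carry no test, rest largely on the 2 tetra groups given Cort, and share libraries with the members. Ralb had group means of 3824 and 3797 with TCA plus Cort and Cort in tetra, against 2301 to 3093 in the other 6 groups, so its range was far narrower than that of Orm3. Among members, r over the 8 groups was 0.997 between Orm1 and Orm3, 0.951 between Orm1 and Orm2, 0.968 between Orm3 and Il6ra and 0.271 between Orm3 and Stat3.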

How the data were processed

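Total RNA of 24 libraries was made into stranded, ribosome-depleted libraries, per the labels. Per the submitters' processing notes, the tools were cutadapt, STAR 2.7.0f and HOMER 4.10.4, on build mm10. The authors summed exon reads per gene and deposited them after a variance-stabilising step, on a scale close to log2 and made separately for each of 6 tables, per the file headers; no strand setting is stated, so overlapping antisense reads may be mixed in. The deposited log2 fold changes and p-values were not used, and the header of 1 table names 5 group labels for 6 libraries.

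The deposited log2 scale was inverted to reads, and 100% of the results under 1000 were whole numbers to within 0.01. Libraries of a group differed beyond counting error (chi-square per gene 2.42 to 35.2 over 24 pairs). Each table was tested with limma 3.58.1 (R 4.3.3, intensity trend) on the deposited log2 values, for genes averaging 10 or more normalised counts, with Benjamini-Hochberg adjustment and calls below 0.05. Log2 changes printed are those of the normalised count plus 1. Comparisons across tables used log2(count over median-ratio size factor + 1), on symbols counted on the same transcript in both tables joined. Levels over all 24 libraries, marker values and likeness of pattern used the 22475 symbols with the same transcript over 4 tables, with 2649 left out. All counting intervals are exact at 95% and cover counting error only. The fits were tested on simulated data. Sequence and figures used Python 3.11.15, Biopython 1.88 and matplotlib 3.10.9.

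The members, lists and tests were chosen with earlier results of these data known. Genes named are the 10 members, 4 receptor targets, up to 4 called genes with the smallest adjusted p per list and comparison, the 4 most alike genes and the 2 nearest neighbours on each side. A gene that this rule names is not reported here. Alternatives changed the scale, model, trend, filter, scaling, replicates and block.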

Additional observations from a re-analysis of the deposited data

Results flagged for a closer look

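A difference between the lines in the response to Cort on top of TCA, by limma's interaction term, was called for 10 of the genes named. Of all genes tested 0.643% were called. List genes are named because they were called, so the count of 10 supports nothing. Lcn2 passed the filter only through tetra TCA plus Cort, and its call was lost without any 1 of several libraries, so its value is a description. The difference, as log2 change in tetra minus wt, was 3.80 for Orm3, 3.86 for Lcn2 and 1.66 for Il6ra. Among receptor targets it was 1.03 for Fkbp5 and 0.64 for Tsc22d3. For genes of the lists it was 0.63 for Mt1, 1.01 for Bcl2l1 and 0.91 for Slc39a14, and in the other direction -0.61 for Ier3 and -0.47 for Irf1. Fkbp5, which encodes a co-chaperone that restrains the receptor, had 3580 ± 57.9 normalised counts with TCA plus Cort against 1663 ± 16.2 with TCA in tetra, and 1885 ± 95.5 against 1780 ± 12.3 in wt (SD, n = 3). Slc39a14 had 4449 ± 166 against 2356 ± 138 in tetra and 3016 ± 72.7 against 3000 ± 94.3 in wt. Groups of 3 libraries are too small for a test of single outlying libraries.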

How the results depend on the processing

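The number of members called for TCA plus Cort against TCA in wt, 1 of 5 tested, was 0 with a mean count of at least 50, 0 with the replicate block and 0 to 1 with single libraries left out. In tetra it was 5, and 2 with a mean count of at least 50, where fewer members are tested, and 5 throughout when single libraries were left out. For the difference between the lines it was 3, and 5 with pseudocount 5, 5 with the deposited values and 2 to 3 with single libraries left out. Leaving out single libraries gave 5 to 6 in TCA plus Cort against Cort in wt, 4 to 6 in tetra against wt vehicle, and 0 in both tetra comparisons that ask for an effect of TCA. Of all genes, the first 2 called 59.0% and 44.4% with all libraries. Cort on top of TCA called 0.415% in wt and 1.71% in tetra, and the difference 0.643%. Orm1, Orm2 and Lcn2 had to differ to be tested in tetra and in the difference. So had Orm1 and Orm2 in TCA plus Cort against Cort in wt, so these counts are descriptions. Apart from the construction named, the cause was not tested.

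Changes that turned their sign were all uncalled. On the scale of the deposited values, leaving out single libraries gave -0.0085 to 0.0967 for Il6ra and -0.0087 to 0.0458 for Stat3 when wt cells given TCA plus Cort were set against TCA, and -0.0527 to 0.0312 for Stat3 in tetra, where scaling to total exon reads gave -0.0078 for Stat3. In TCA against vehicle in tetra the ranges were -0.043 to 0.0018 for Orm3 and -0.0055 to 0.161 for Il6st. On the log2(normalised count + 1) scale, in TCA plus Cort against Cort in tetra, they were -0.0583 to 0.204 for Orm1, -0.0276 to 0.44 for Orm2 and -0.0414 to 0.154 for Orm3, and for the difference between the lines -0.0783 to 0.0251 for Stat3 and -0.0019 to 0.435 for Cp.

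Libraries with the same replicate number were not treated as pairs: correlations of their deviations ran from -0.167 to 0.252, and no comparison had all pairs above 0.1. All 3 numbers matched their own best in both comparisons of TCA plus Cort against Cort, as a hint from the data, so pairing is not settled there. With the replicate block, genes called were 9 in place of 53 for TCA plus Cort against TCA in wt (Orm3 limma adjusted p = 0.0595), 11 in place of 2 for TCA in tetra and 60 in place of 8 for TCA plus Cort against Cort in tetra; no other count of members changed. The difference of Lcn2 had a limma adjusted p of 0.0514 without the intensity trend, and those of Orm1 and Orm2 1.96e-05 and 0.000465 with the deposited values. These 3 genes passed the filter only through tetra TCA plus Cort, so these values are descriptions. Orm1, Orm2 and Lcn2 are limited by depth, with 3 reads or fewer in many libraries without Cort.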
